A study of Mus musculus with 8 samples.

Results

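Pax6 chromatin immunoprecipitation with sequencing (ChIP-seq) listed 106 Pax6 sites at 64 genes of translation factors and aminoacyl-tRNA synthetases, out of 26244 sites of the authors' deposited table. The sites were taken by the symbol of the gene that the authors assigned to each site: symbols starting with Eif or Eef and a digit, and 4-letter synthetase symbols ending in "ars", with or without a final 2 that marks the mitochondrial enzyme. The rule also takes regulators that carry these names, such as the kinases Eif2ak3, Eif2ak4 and Eef2k and the binding proteins Eif4ebp1 and Eif4ebp2. It does not take synthetase genes with other names, such as Eprs and Farsa. The cells were alphaTC1, a glucagon-secreting line of mouse pancreatic alpha cells. Control knockdown (control KD) cells had received a scrambled antisense oligonucleotide. Paupar knockdown (Paupar KD) cells had received one directed at Paupar, the non-coding RNA made beside the Pax6 gene. Each group had 2 Pax6 ChIP libraries, and the 4 input libraries were not analysed here.

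Translation starts when initiation factors bring the initiator tRNA and the small ribosomal subunit to the messenger RNA. The eIF4 factors bind and unwind the cap end of the message, eIF2 delivers the initiator tRNA, eIF2B recharges eIF2 with GTP, and eIF3 holds the complex together. Elongation factors then bring charged tRNAs and move the ribosome, while the synthetases load each tRNA with its amino acid. Kinases that phosphorylate eIF2, among them PERK (Eif2ak3) and GCN2 (Eif2ak4), slow initiation under stress, and loss of PERK damages the secretory cells of the pancreas. Pax6 binds DNA through a paired domain and a homeodomain, and islet hormone-producing cells depend on it.

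The question of the comparison was whether Pax6 occupancy differed after Paupar KD. Of the 106 sites, 104 entered the authors' adjustment for multiple testing, and 1 of them was higher and 0 lower after Paupar KD at a false discovery rate (FDR) below 0.05 per the authors' deposited table. Over all sites in the adjustment, 3.39% were higher and 0.88% lower per the authors' deposited table. That site lay in Eif2ak3. At an FDR below 0.1 a second higher site was added, distal to Eef2kmt, and none was lower, beside 5.19% higher and 1.87% lower of all sites per the authors' deposited table. At an unadjusted p below 0.05 there were 5 higher and 11 lower member sites of 106, or 4.72% and 10.4%, beside 10.7% and 6.67% of all sites per the authors' deposited table. The test behind these values is the authors' own, and it cannot be refitted from group means. Nothing in the labels says that replicates came from separate cultures, so its p-values may measure a technical spread.

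The sequence under 4 of the strongest promoter sites and of the synthetase site with the smallest p is shown, so that the DNA behind the values below can be read. Concentration is the authors' mean normalized read signal of a group in a window of 100 bp, read as log2. Each sequence is the part of the window that RefSeq's promoter table (GRCm38.p6, the assembly that mm10 names) holds, written 5′ to 3′ on the strand of the gene. Capitals mark the GC box (GGGCGG), the ETS motif (CCGGAAG), the NRF1 motif and the core of the Pax6 paired-domain consensus (TTCACGC), each on either strand.
Eif4h, chr5:134639563-134639659, minus strand: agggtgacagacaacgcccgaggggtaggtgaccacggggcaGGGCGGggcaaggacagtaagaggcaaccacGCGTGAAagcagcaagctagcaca
Eif1ad, chr19:5366762-5366861, plus strand: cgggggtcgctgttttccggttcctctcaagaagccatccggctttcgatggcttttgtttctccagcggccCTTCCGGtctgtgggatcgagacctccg
Eif4a2, chr16:23107336-23107435, plus strand: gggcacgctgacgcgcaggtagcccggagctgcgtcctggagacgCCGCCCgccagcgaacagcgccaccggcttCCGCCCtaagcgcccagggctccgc
Eif2b4, chr5:31193111-31193210, minus strand: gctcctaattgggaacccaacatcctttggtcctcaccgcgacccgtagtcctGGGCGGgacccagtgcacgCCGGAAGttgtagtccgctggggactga
Tars, chr15:11399747-11399846, minus strand: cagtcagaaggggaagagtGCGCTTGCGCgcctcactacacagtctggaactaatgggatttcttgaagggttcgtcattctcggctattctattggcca

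Among these 5 windows, the letters TTCACGC occurred at Eif4h alone, on the strand opposite to the gene. RefSeq's table held 63 promoters of 300 bases, from 250 bases before to 50 after a start, for 51 of the 64 genes. Of these promoters 1, that of Eif4h, held TTCACGC, or 1.59% beside 1.26% of all 32851 promoters. The paired-type homeodomain dimer motif was in 0 of the 63 and in 0.487% of all promoters. GC boxes were in 44 of 63 (69.8%, beside 35.7% of all), the ETS motif in 19 (30.2%, beside 8.86%) and the NRF1 motif in 11 (17.5%, beside 4.6%). Some of the 63 promoters, such as that of Gars, had no listed site, so these shares describe the genes' promoters and not the Pax6 sites. The promoters of these genes held a median of 22 CpG per 300 bases and all promoters a median of 7, and the part of base composition in these shares was not tested. Across the member promoters, 0 matches of one motif overlapped a match of another. No match here is evidence of binding by the named factor.

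Synthetase promoters are known for elements bound by ATF4 in the amino acid response, and the core of that element, TGATGNAA, was searched on both strands as well. It was in 7 of the 63 promoters (11.1%, beside 3.97% of all promoters): Aars, Gars, Iars, Tars, Yars, Eef2k and Eif2s3x. The synthetase matches are shown with 16 bases on either side on the strand of the gene, and capitals mark the match.
Yars, chr4:129189890-129189929: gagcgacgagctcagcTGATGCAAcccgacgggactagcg
Gars, chr6:55037955-55037994: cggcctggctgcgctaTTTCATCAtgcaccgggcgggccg
Aars upstream match, chr8:111033714-111033753: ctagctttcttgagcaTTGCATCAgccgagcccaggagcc
Aars downstream match, chr8:111033835-111033874: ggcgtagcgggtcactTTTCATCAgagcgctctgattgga
Iars, chr13:49682121-49682160: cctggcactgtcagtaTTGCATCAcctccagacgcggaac
Tars, chr15:11399650-11399689: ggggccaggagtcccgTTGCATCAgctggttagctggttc

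The middle of the listed Pax6 site lay 57 bp from the middle of the Yars stretch, 58 bp from that of Iars, 127 bp from that of Tars, and 170 and 49 bp from those of Aars. Gars had no promoter site in the table, although its promoter held the core. The Pax6 windows that lay wholly inside a RefSeq promoter held this core in 0 of 14 cases at these genes and in 0.978% of 1227 over the whole table. By their coordinates, the matches shown for Yars, Aars, Iars and Tars lay beside the listed window or across its edge, not wholly inside it. The Yars and Aars windows lay only partly in the promoters of their own genes, and their letters beyond those promoters are not shown here.

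Promoters held 51 of the 106 sites (48.1%, exact 95% interval 38.3 to 58.0%), beside 27.5% of all sites per the authors' deposited table. The interval takes the sites as independent, although the 106 came from 64 genes and 12 of them from Eif4g3 alone. The difference from all sites was not tested. Introns held 25 sites, distal intergenic sequence 22, exons 5, 3′ untranslated regions 2, and sequence downstream of a gene 1. Of the 51 promoter sites, 44 lay within 1 kb of the assigned start, and 13 of those overlapped it. RefSeq's promoter table held the assigned gene's own start for 34 of the 44 windows, so its count of other genes' starts can be too low. It placed the start of another gene within 1 kb of the middle of 8 of the 44 windows. Among these were Banf1 beside Eif1ad, Snx17 beside Eif2b4, Map4k1 beside Eif3k, Atp6v1d beside Eif2s1, Terf2ip beside Kars, Mrps12 beside Sars2 and S100pbp beside Yars. At such paired starts the table's symbol names 1 of 2 genes, and the window cannot be assigned to one of them alone. The distances are those to the nearest annotated transcript start, which need not be the start of the gene. In RefSeq's list of genes, 6 of the 51 lay over 3 kb from the gene's outermost start: Eif5b (49.3 kb), Eif3h (31.3 kb), a Cars site (31.2 kb), a Yars site (24.4 kb), a Mars site (16.4 kb) and Aars (6.1 kb). Of the 25 intron sites, 18 lay in the assigned gene, 6 in another gene and 1 in a transcript without a gene identifier.

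RefSeq's gene table has 105 protein-coding genes that follow the rule, counting Mars under its present symbol, and 64 of them (61.0%) had at least 1 listed site. Over all 21896 protein-coding genes of that table the share was 40.7%. Cytosolic synthetases had sites at 14 of 17 genes, with none assigned to Hars, Vars and Wars, and mitochondrial synthetases at 11 of 17. The eIF3 subunits had sites at 5 of 14 genes, with the core subunit genes Eif3a and Eif3c unlisted. Most genes, 43, had a single site, 13 had 2, 3 had 3, 4 had 4, and Eif4g3 had 12. The members also lay high in the range of signal, with 50 of them (47.2%) in the highest quartile of mean concentration, which starts above 5.38 per the authors' deposited table.

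**Figure D1:**
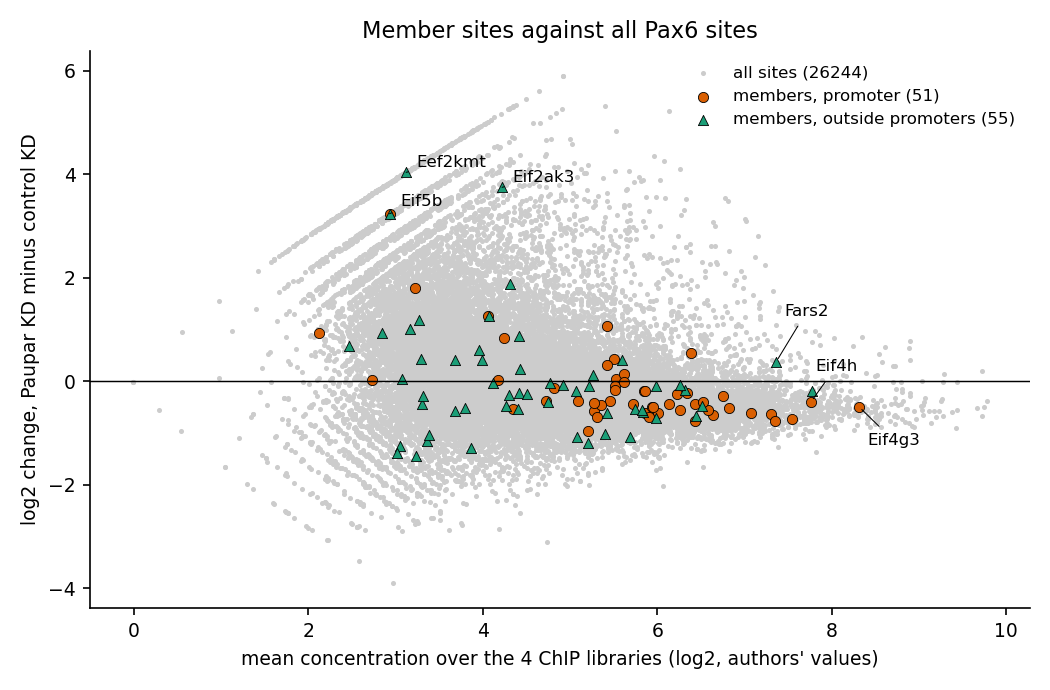
Log2 change (Paupar KD minus control KD) of each site against its mean log2 concentration over the 4 ChIP libraries, with all 26244 sites in grey, the 51 member promoter sites as circles and the 55 other member sites as triangles. Most members on the right lie just below 0, and the differences above 3 lie at low mean signal, with Eif2ak3 highest in mean signal among them.

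Member sites in the upper quartiles of signal lay mostly below 0, and those in the lower quartiles more often above. The median log2 change (Paupar KD minus control KD) was -0.285, with 74 sites below 0 and 32 above, beside a median of -0.03 over all sites per the authors' deposited table. Within 1 log2 unit of no change lay 85 of the 106 (80.2%, beside 73.9% of all sites) per the authors' deposited table. Among sites of the top signal quartile, the 50 members had a median of -0.44 and all sites of that quartile -0.36 per the authors' deposited table. The 35 member promoter sites of that quartile also had -0.44, and all 3102 promoter sites of the quartile -0.43 per the authors' deposited table. At an unadjusted p below 0.05, 10 of the 50 members were lower and 1 higher per the authors' deposited table. Of all 6529 sites of that quartile, 1260 were lower and 366 higher at that p per the authors' deposited table. In the next quartile down, 16 of 17 members (94.1%, beside 57.0% of all its sites) lay below 0, with medians of -0.38 and -0.12 per the authors' deposited table. All 8 promoter members of that quartile lay below 0, with a median of -0.435 beside -0.16 for all its promoters per the authors' deposited table. In the second quartile the 20 members had a median of 0.13 and all sites 0.20, and in the lowest the 19 members had 0.44 and all sites 0.72 per the authors' deposited table. The medians of member promoters and all promoters thus differed by 0.01 in the top quartile and by more in the one below it, and neither difference was tested.

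**Figure D2:**
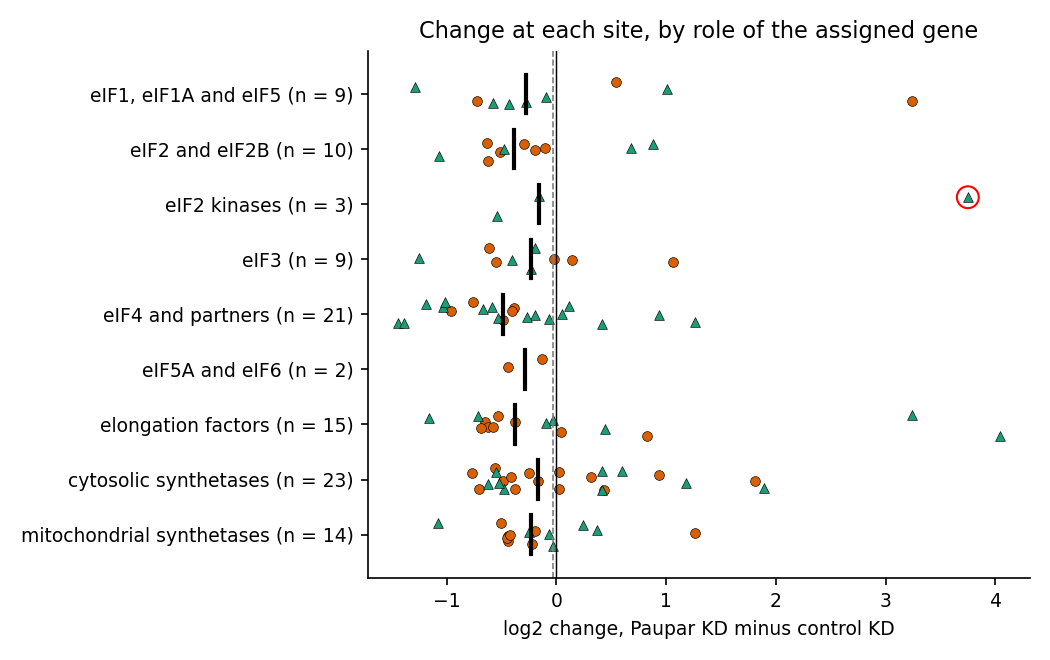
Log2 change (Paupar KD minus control KD) at each member site, grouped by the role of the assigned gene, with promoter sites as circles, other sites as triangles, black bars for medians and a dashed line at the median of all 26244 sites. The circled point is the Eif2ak3 intron site, the 1 member with an FDR below 0.05, and the median of every class lies between -0.49 and -0.16.

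The kinases that switch off eIF2 had 3 sites. The rise at Eif2ak3, the gene of the endoplasmic reticulum stress kinase PERK, lay in intron 2 of 16 (chromosome 6, 70872356 to 70872455, mm10), 27.9 kb into the gene. Its concentration was 1.37 under control KD and 5.12 under Paupar KD, a log2 change of 3.75 (p = 2.2e-05, FDR 0.00232) per the authors' deposited table. Of the 4 libraries, only Paupar KD replicate 2 had a summit there, 21 bp from the middle of the window, with a score of 12.6 (rank 6786 of 17942). The other 3 libraries had no summit within 2 kb. The authors' summit score, taken as −log10 of the q-value, ranks summits within 1 library's list. The signal of each library is not in the table, so whether both Paupar KD libraries carried the rise was not tested. A second Eif2ak3 site, 19.8 kb upstream of the start, had 5.99 and 5.45 (FDR 0.530) per the authors' deposited table and a summit in all 4 libraries. The single site of Eif2ak4, the amino acid sensing kinase GCN2, lay in an exon and had 6.40 and 6.24 (FDR 0.866) per the authors' deposited table, also with a summit in all 4 libraries. Eif2ak1 and Eif2ak2 had no listed site.

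The genes of eIF2 subunits, which these kinases act on, and of the exchange factor eIF2B had 7 sites, 5 of them at promoters. Eif2a and Eif2d, which encode separate factors, had 3 more sites in the same class, 1 of them at a promoter. None of the 10 passed the FDR per the authors' deposited table. The Eif2b4 promoter, whose window also lies within 1 kb of the start of Snx17, had 7.58 under control KD and 6.95 under Paupar KD (p = 0.0201, FDR 0.176) per the authors' deposited table. Its summits were in the Paupar KD libraries only (scores 13.1 and 11.7), although the control KD concentration was the higher. Eif2b2, another eIF2B subunit gene, had 6.89 and 6.60 at its promoter (FDR 0.719) per the authors' deposited table, with a lone summit in Paupar KD replicate 2. Eif2s3x, the X-linked gene of the eIF2 gamma subunit, had 7.06 and 6.55 at its promoter (FDR 0.385) per the authors' deposited table. A distal site assigned to Eif2s3x, 34.8 kb away, had 6.13 and 5.06 (p = 0.0167, FDR 0.159) per the authors' deposited table. The alpha and beta subunit genes, Eif2s1 and Eif2s2, had promoter sites with 5.94 and 5.75, and with 6.14 and 5.51 (FDR 0.856 and 0.470) per the authors' deposited table. The sites of Eif2b3 and Eif2d had FDRs from 0.488 to 0.940 per the authors' deposited table, and the Eif2a site was outside the adjustment. Promoter sites made up the stronger members of the class, with the distal Eif2s3x site as the exception.

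The genes named for eIF1, eIF1A and eIF5, factors of start-site selection and subunit joining, had 9 sites. Eif1ad, which encodes a protein with an eIF1A-like domain, had the strongest of them, within 1 kb of the start of Banf1 as well. That site had 7.86 under control KD and 7.14 under Paupar KD (p = 0.00925, FDR 0.114) per the authors' deposited table. It had summits in each control KD library (scores 17.8 and 14.9) and in Paupar KD replicate 2 (17.7), and none in Paupar KD replicate 1. Eif5, which encodes the factor that makes eIF2 hydrolyse its GTP, had 6.10 and 6.64 at its promoter (FDR 0.791) per the authors' deposited table. Eif5b, the gene of the GTPase that joins the ribosomal subunits, had a weak site (chromosome 1, 38047271 to 38047370, mm10) 2.64 kb from an internal transcript start, 49.3 kb into the gene. That site had 0.55 under control KD and 3.79 under Paupar KD (p = 0.0105, FDR 0.123) per the authors' deposited table, with a summit in both Paupar KD libraries (5.86 and 6.53) and neither control KD library. Eif1b had a distal site with 4.36 and 3.08 (FDR 0.445), one of the 3 largest differences downwards, per the authors' deposited table. The Eif5b site had the second largest difference of the named sites above the floor, shared with an Eef2kmt site, and the weakest control KD signal of its class. The sites of Eif1, Eif1a and the remaining ones of Eif1b, Eif5 and Eif5b had FDRs from 0.683 to 0.954 per the authors' deposited table.

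The eIF3 genes, whose products form the scaffold of the initiation complex, had 9 sites at 5 genes and 0 past the FDR. The strongest was the Eif3b promoter, with 6.83 and 6.28 (FDR 0.352) per the authors' deposited table. Eif3h had the largest difference upwards of the class, 4.79 and 5.85 (p = 0.0187, FDR 0.170) at a site 2.03 kb from an internal transcript start per the authors' deposited table. Eif3d had 4 sites, of which the promoter was the strongest (6.28 and 5.67, FDR 0.407) per the authors' deposited table. The site 66.1 kb upstream of Eif3d lay in an intron of Cacng2 and had 3.55 and 2.29 (FDR 0.578) per the authors' deposited table. The promoters of Eif3k and Eif3l differed by 0.14 and -0.02 on the log2 scale per the authors' deposited table. The distal sites, 1 of Eif3h and 2 of Eif3d, had FDRs from 0.823 to 0.904 per the authors' deposited table.

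The eIF4 factors and their partners held 21 sites at 9 genes, with 16 below 0 and a median log2 change of -0.49, the lowest of the 9 classes, per the authors' deposited table. Eif4g3, which encodes a large scaffold that joins the cap-binding protein to the ribosome, accounted for 12 of them, spread over 141.4 kb. Its promoter site (chromosome 4, 137993094 to 137993193, mm10) was the strongest of all members, with 8.53 under control KD and 8.04 under Paupar KD (p = 0.0420, FDR 0.260) per the authors' deposited table. All 4 libraries had a summit there, with scores of 83.3 and 51.0 in control KD and 30.4 and 91.6 in Paupar KD. The 2 Paupar KD scores lay on either side of the control KD scores. A score ranks summits within its own library's list only, so these scores do not compare occupancy between the groups. An intron site 25.1 kb downstream (138018234 to 138018333) had 7.86 and 7.67 (FDR 0.756) per the authors' deposited table. Its summit in control KD replicate 1 was the highest of any member in that list, with a score of 210 and rank 102 of 14311. Another intron site, 15.7 kb downstream of the promoter site, had 5.68 and 4.49 (p = 0.0146, FDR 0.148) per the authors' deposited table, with summits in each control KD library (20.1 and 20.0) and neither Paupar KD library.

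Only 4 of the 12 Eif4g3 sites lay in introns of Eif4g3, and 5 lay in introns of Ece1, the neighbouring gene of endothelin-converting enzyme. The 5 Ece1 sites lay between -63.4 and -48.4 kb of the promoter site, with 4 above 0 and 1 below per the authors' deposited table. The strongest of them had 6.73 and 6.07 (p = 0.0424, FDR 0.261) per the authors' deposited table. The 4 sites in Eif4g3 introns had 3 below 0 and 1 above per the authors' deposited table. The pair of largest differences downwards among all members also lay here, at weak sites with a summit in control KD replicate 2 alone. A site annotated to a 3′ untranslated region, of a gene that the annotation does not name, lay at -28.6 kb. It had 3.77 and 2.33 (log2 change -1.44, FDR 0.485) per the authors' deposited table. An intron site at 78.0 kb had 3.55 and 2.16 (log2 change -1.39, FDR 0.541) per the authors' deposited table. None of the 12 passed the FDR, with values from 0.148 to 0.993 per the authors' deposited table.

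**Figure D3:**
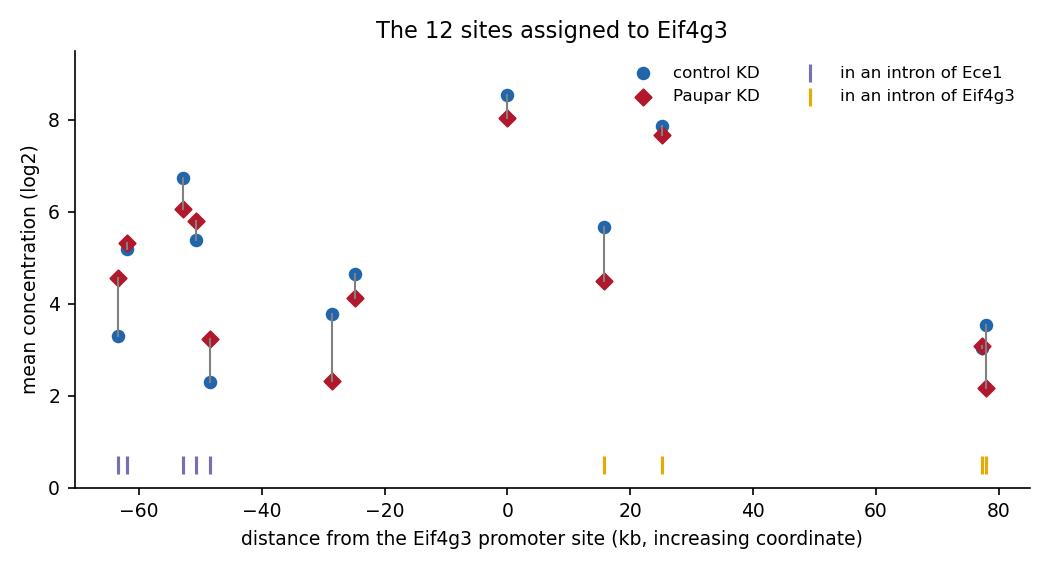
Mean log2 concentration in control KD (circles) and Paupar KD (diamonds) at the 12 sites assigned to Eif4g3, by distance in kb from its promoter site, with ticks under the 5 sites in introns of Ece1 and the 4 in introns of Eif4g3. The promoter site and the intron site 25.1 kb downstream are the strongest, and 5 of the 12 lie in introns of the neighbouring gene.

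The helicase genes of the cap complex also had promoter sites, and that of Eif4a2 was the stronger. Eif4a2 had 7.68 under control KD and 6.92 under Paupar KD (p = 0.00895, FDR 0.113), and Eif4a1 5.65 and 5.25 (FDR 0.709) per the authors' deposited table. The Eif4a2 summit scores were 3.46 and 6.19 under control KD and 5.44 under Paupar KD replicate 2, with none in replicate 1. Eif4h, the gene of a helicase cofactor, had 7.94 and 7.54 at its promoter (FDR 0.369) per the authors' deposited table. Its summits were in both control KD libraries (52.2 and 25.5) and in Paupar KD replicate 2 (28.5), and Paupar KD replicate 1 had none within 2 kb. The binding proteins that hold back the cap-binding protein had 1 site each: Eif4ebp1 5.60 and 4.64 (FDR 0.320), and Eif4ebp2 5.82 and 4.81 (p = 0.0241, FDR 0.194) per the authors' deposited table. The Eif4ebp2 site lay in intron 1 of 2 and had summits in each control KD library (28.4 and 12.2) and in neither Paupar KD library. Eif4e, the cap-binding protein gene itself, had a single listed site 54.5 kb away with 6.29 and 6.22 (FDR 0.951) per the authors' deposited table. The single sites of Eif4b and Eif4e2 and the distal site of Eif4h had FDRs of 0.509, 0.617 and 0.886 per the authors' deposited table. Eif4g1 and Eif4g2 had no listed site. Eif6, which keeps the ribosomal subunits apart, and Eif5a had promoter sites with 6.33 and 5.89 (FDR 0.660), and with 4.88 and 4.75 (FDR 0.943) per the authors' deposited table.

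**Figure D4:**
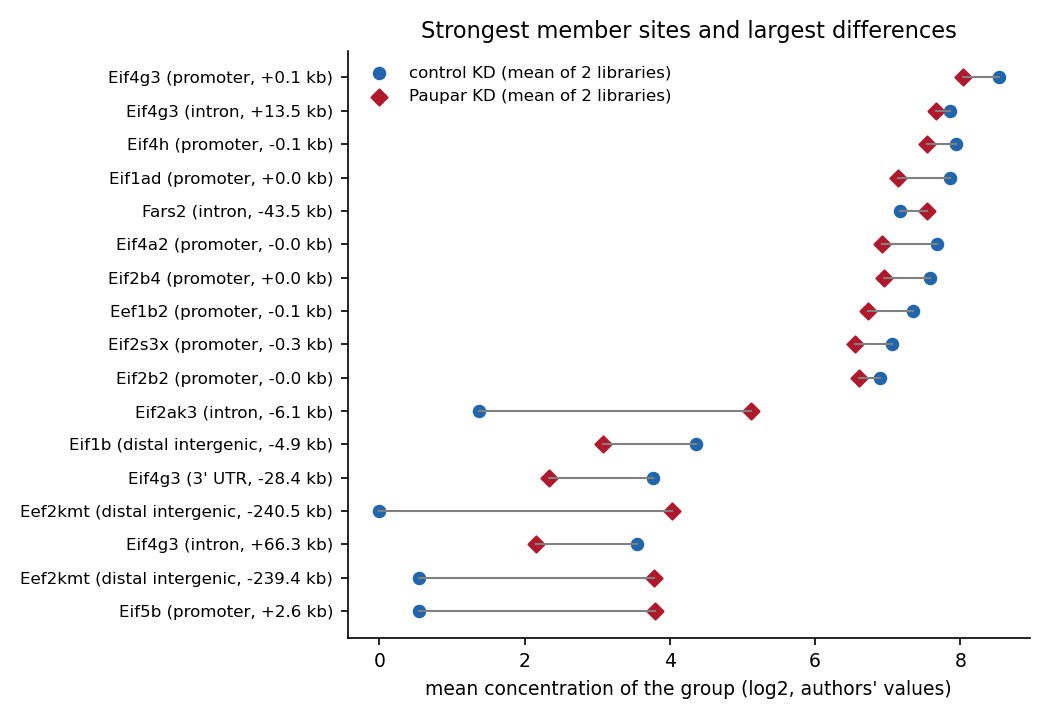
Mean log2 concentration of the group in control KD (circles) and Paupar KD (diamonds) for the 10 strongest member sites and those with an FDR below 0.1 or the largest differences, with the class and signed distance to the nearest annotated transcript start in kb. The strong sites differ by less than 1 log2 unit, whereas Eif2ak3, Eef2kmt and Eif5b lie near or below 1.37 in control KD.

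The elongation factor genes Eef1a1, Eef1a2, Eef1b2, Eef1g and Eef2 had 8 sites, and Eef2k and Eef2kmt, which encode enzymes that modify eEF2, had 7. None of the 15 passed the FDR of 0.05 per the authors' deposited table. Eef1b2, which encodes an exchange factor subunit that recharges eEF1A, had the strongest, with 7.35 and 6.73 at its promoter (p = 0.0336, FDR 0.230) per the authors' deposited table. All 4 libraries had a summit there (10.2 and 11.9 in control KD, 5.41 and 32.4 in Paupar KD), each score ranking within its own list only. Eef1a2, the eEF1A isoform gene of neurons and muscle, had 4 sites within 2 kb of its start, the strongest with 6.93 and 6.28 (p = 0.0346, FDR 0.234) per the authors' deposited table. The other Eef1a2 sites had 4.58 and 4.05, 5.51 and 5.55, and 3.76 and 4.59 per the authors' deposited table, so they did not share a direction. Eef1a1, the widely expressed isoform gene, had a single site 38.5 kb away with 4.13 and 4.10 (FDR 0.994) per the authors' deposited table. The promoters of Eef1g and Eef2 had 5.53 and 4.95, and 5.61 and 4.92 (FDR 0.564 and 0.497) per the authors' deposited table.

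The enzymes that modify eEF2 had 6 of their 7 sites at 7.09 kb or more from an annotated start. Eef2k, the gene of the kinase that stops eEF2, had 4 sites between 7.09 and 19.4 kb from a start, with FDRs from 0.342 to 0.944 per the authors' deposited table. Eef2kmt encodes a methyltransferase of eEF2, and a pair of distal sites 1.13 kb apart was assigned to it from 239 and 240 kb away. The farther one (chromosome 16, 5496472 to 5496571, mm10) had 4.03 in Paupar KD and stood at the floor (-0.01) in control KD (p = 0.00620, FDR 0.0931) per the authors' deposited table. The nearer one (5495338 to 5495437) had 0.55 and 3.78 (p = 0.0108, FDR 0.125) per the authors' deposited table. Each had a lone summit in Paupar KD replicate 1, with scores of 11.6 and 2.55. The Eef2kmt site near its start had 4.89 and 4.52 (FDR 0.799) per the authors' deposited table. With a gene that far away, the symbol says only which start was nearest.

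Cytosolic synthetases had 23 sites at 14 genes, 14 of them at promoters, and 0 passed the FDR. Tars, which charges threonine tRNA, had the smallest p: 6.76 under control KD and 6.0 under Paupar KD at its promoter (p = 0.0345, FDR 0.234) per the authors' deposited table. All 4 libraries had a summit at Tars, with scores of 21.6 and 9.85 in control KD and 4.08 and 29.9 in Paupar KD. These scores rank summits within each list and do not compare the groups. Rars, for arginine, had the strongest site of the class, with 6.71 and 6.30 at its promoter (FDR 0.612) per the authors' deposited table. Its only summit was in Paupar KD replicate 2 (12.9). The promoters of Yars, Aars, Kars, Nars, Qars and Iars had control KD concentrations from 5.27 to 6.51 and Paupar KD concentrations from 4.89 to 6.10, with log2 changes from -0.7 to -0.17 (FDRs 0.351 to 0.887) per the authors' deposited table. The promoters of Lars and Sars had the opposite sign, 5.27 and 5.70 (FDR 0.670) and 5.25 and 5.57 (FDR 0.789) per the authors' deposited table.

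Gars, which charges glycine tRNA in the cytosol and in mitochondria, had the largest difference upwards among the synthetases. A site in its intron 1 of 16 (chromosome 6, 55044720 to 55044819, mm10) had 3.08 and 4.97 (p = 0.188, FDR 0.538) per the authors' deposited table, with a lone summit in Paupar KD replicate 1 (13.4). The log2 change there was 1.89, with a larger p than that of -0.77 at Tars per the authors' deposited table. A Mars site 2.20 kb from a transcript start, 16.4 kb from the gene's own start, had 2.04 and 3.85 (FDR 0.379) per the authors' deposited table, and it was the 1 member site without a summit in any library. Outside promoters the strongest synthetase site in the cytosolic class was distal to Dars, 53.6 kb away, with 6.73 and 6.25 (FDR 0.499) per the authors' deposited table and a summit in all 4 libraries. An intron site of Lars had 6.07 and 5.52 (FDR 0.552) per the authors' deposited table, also with 4 summits. The remaining sites of the class had FDRs from 0.509 to 0.999 per the authors' deposited table, except a Cars site outside the adjustment.

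Mitochondrial synthetases had 14 sites at 11 genes, with 11 below 0 and a median log2 change of -0.235 per the authors' deposited table. The strongest lay in intron 4 of 6 of Fars2, the mitochondrial phenylalanine enzyme gene (chromosome 13, 36283332 to 36283431, mm10). It had 7.17 under control KD and 7.54 under Paupar KD (p = 0.147, FDR 0.483) per the authors' deposited table, the only one of the 10 strongest member sites with a log2 change above 0. Its summits scored 156 and 66.9 in control KD and 142 and 150 in Paupar KD, and that in Paupar KD replicate 1 was the highest of any member in the list (rank 166 of 15611). Nars2 had 4 intron sites and no promoter site, with 5.52 and 4.44 (p = 0.0636, FDR 0.323) at the one with the largest difference, per the authors' deposited table. The other 3 had FDRs from 0.880 to 0.987 per the authors' deposited table. The sites of Lars2, Tars2, Wars2, Hars2, Pars2 and Sars2 near their starts had control KD concentrations from 5.47 to 6.45 and log2 changes from -0.5 to -0.19, with FDRs from 0.618 to 0.857 per the authors' deposited table. Rars2 had 3.30 and 4.56 (FDR 0.377) at a site 1.20 kb from its start, and Cars2 4.95 and 4.88 (FDR 0.972) per the authors' deposited table.

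**Figure D5:**
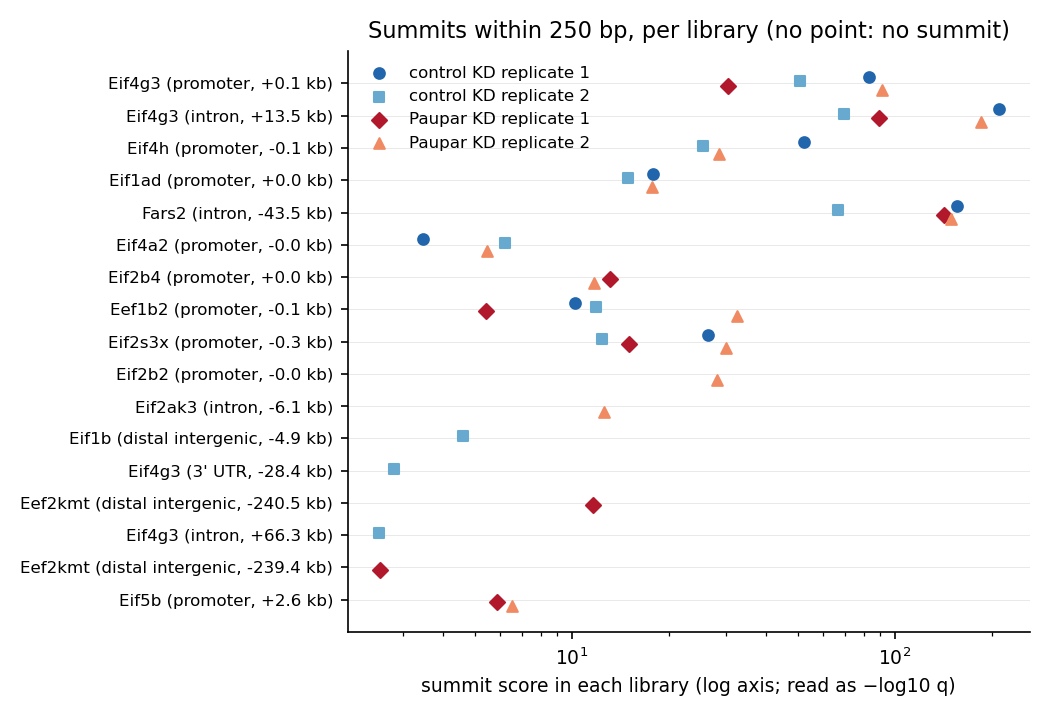
Summit score on a log axis, read as −log10 of the q-value, of the highest summit within 250 bp in each of the 4 Pax6 ChIP libraries, for the 10 strongest member sites and those with the largest differences. The Eif4g3 and Fars2 intron sites have high scores in all 4 libraries, Eif4a2 has scores of 3.46 to 6.19 in 3 libraries, and the Eif2ak3 site has a single point, from Paupar KD replicate 2.

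The peak lists are the only values per library. They held 14311 and 9983 summits in control KD and 15611 and 17942 in Paupar KD, and read depth is unknown. Within 250 bp of the window's middle, 23 of the 106 members (21.7%) had a summit in all 4 libraries, beside 20.0% of all sites. A further 49 members (46.2%) had a summit in 1 library, beside 43.9% of all sites, and 24 of these summits were in Paupar KD replicate 2, the longest list. By library, 52 and 45 members (49.1 and 42.5%) had a summit in control KD replicates 1 and 2, beside 50 and 34.9% of all sites. In Paupar KD replicates 1 and 2 the counts were 50 and 75 (47.2 and 70.8%), beside 54.4 and 63.1% of all sites. Over all sites both Paupar KD shares lay above both control KD shares, while among the members that of Paupar KD replicate 1 lay between the control KD shares. Whether the members differ from other sites in this was not tested.

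Summits and concentrations often went apart at promoters. In the highest quartile of signal, 9 of 35 member promoter sites (25.7%) had a summit in all 4 libraries, against 10 of 15 member sites elsewhere (66.7%). All sites of that quartile gave 39.7% at promoters and 76.7% elsewhere. The median concentrations of the 2 member sets were close, 6.13 and 5.98 per the authors' deposited table, whereas their median highest scores were 13.4 and 28.3. The highest scores ran from 5.17 to 91.6 at the member promoter sites of that quartile and from 3.41 to 210 at those elsewhere. Eif4a2 and Fars2 are an example: with mean concentrations of 7.35 and 7.36 per the authors' deposited table, their highest scores were 6.19 and 156.

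Member sites with Paupar KD summits in both libraries and none in control KD numbered 7 (6.6%, beside 8.26% of all sites), and those with the reverse pattern 2 (1.89%, beside 1.47%), the intron sites of Eif4ebp2 and Eif4g3. The 7 were 13.7% of the member promoter sites, beside 7.72% of all promoter sites, and elsewhere the counts were 0 of 55 members and 8.46% of all sites. The 7 became 14 without control KD replicate 1 and 9 without control KD replicate 2. They became 31 without Paupar KD replicate 1 and 15 without Paupar KD replicate 2. Fewer libraries then had to meet the pattern, and no share over all sites was computed for these runs. With all 4 libraries, the 7 sites were at Aars, Eef1a2, Eef1g, Eif2b4, Eif2d, Eif5b and Sars. At 6 of them the control KD concentration was at least 5, and at 4 of the 7 it was higher than in Paupar KD per the authors' deposited table. None of the 7 passed the FDR per the authors' deposited table. Over the whole table, 2167 sites had this pattern, of which 418 passed the FDR and 397 had a log2 change below 0 per the authors' deposited table. Of the 2167, 373 had a control KD concentration of at least 5 per the authors' deposited table. Promoters held 557 of the 2167 and all 7 of the members, so the 2 sets are unlike in position.

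Other translation and stress-response genes that the rule does not take were counted from a list of 52 symbols, of which 34 had 57 sites. At an FDR below 0.05, 0 of these sites were higher and 1 lower per the authors' deposited table. Over all sites in the adjustment the shares were 3.39% and 0.88% per the authors' deposited table. A Nupr1 site and a Mknk1 site among the 57 were outside the adjustment. The lower site lay in intron 4 of 6 of Eefsec, the gene of the elongation factor for selenocysteine, with 6.42 and 4.96 (FDR 0.0174) per the authors' deposited table. The strongest was the promoter of Denr, a factor of ribosome recycling and reinitiation, with 8.07 and 8.18 (FDR 0.883) per the authors' deposited table. The 57 sites had a median log2 change of -0.2 per the authors' deposited table. Of the list's 15 symbols of the integrated stress response, the programme downstream of the eIF2 kinases, 10 had 19 sites. Of these sites 0 passed the FDR per the authors' deposited table. Their Atf4 promoter site, at the gene of the main transcription factor of that programme, had 6.89 and 6.62 (FDR 0.700) per the authors' deposited table. All 7 alpha-cell marker genes looked for had a listed Pax6 site assigned to them, beside 40.7% of all protein-coding genes. The distances of these sites were not examined, and a listed site does not show expression.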

How the data were processed

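Pax6 ChIP-seq in alphaTC1 cells was represented by 1 table of sites and by a summit list for each of the 4 ChIP libraries. Bowtie2, MACS2, DiffBind and ChIPseeker are named for the build mm10, with no versions, per the submitters' processing notes. Not given in the sources used here are DiffBind's normalization and test and whether inputs were used. The authors deposited group mean concentrations and a fold, read here as log2 values since the fold is their difference to within 0.02 at every site, and turned in sign (Paupar KD minus control KD). The p-value and FDR are the authors' deposited values, and no test was run here. The summit score is the authors' own, read as −log10 of the q-value. Summit names in the list deposited with control KD replicate 2 carry a different replicate number, and the list was placed by its sample record. A blank row was left out. At 1010 sites, 2 of them members, the FDR was 1 although p was below 0.99; these were taken as outside the authors' adjustment, which left 25234.

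Members, role classes and lists were chosen with earlier results of these data known. Named sites were those with an FDR below 0.05 or 0.1, the 10 strongest, the 3 largest rises and falls not at the floor (-0.01), every gene with 3 or more sites and the strongest site of each role class. Sites with an unadjusted p below 0.05, and others that complete a class, were added after their values were seen. Summits were matched within 250 bp of a window's middle. Sequences came from RefSeq promoters of GRCm38.p6; matching and motif code (Python 3.11.15, pandas 2.3.3) was tested on simulated data. Intervals cover counting error only. Alternatives were other thresholds, match distances, member sets and leaving out each library. The result of 1 gene is not reported here.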

Additional observations from a re-analysis of the deposited data

How the results depend on the processing

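The group means allow no refit, so the choices tried concern thresholds, member sets and summits. The 1 called member site stayed at 1 with an FDR below 0.01, became 2 below 0.1, and was 0 among promoter sites and 0 without the kinases and binding proteins, since Eif2ak3 is a kinase gene. The median log2 change of -0.285 was -0.435 with 1 value per gene, its strongest site, and lay between -0.28 and -0.4 under the other choices, among them leaving out sites in an intron not credited to the assigned gene (-0.38), a choice made after seeing the data. The promoter share of 48.1% was 41.5% when limited to 1 kb. The count with a summit in all 4 libraries (23) was 17 to 25 with other distances and score limits, and 25 to 30 when 1 library was left out. The count with Paupar KD summits only (7) was 4 within 100 bp, 7 within 500 bp and 6 with scores of at least 5, and it ranged from 9 to 31 when 1 library was left out: 14 without control KD replicate 1, 9 without control KD replicate 2, 31 without Paupar KD replicate 1 and 15 without Paupar KD replicate 2, because fewer libraries then had to meet the pattern. For these summit counts no share over all sites was computed. No paired analysis was possible because the deposited table holds group means without values per library.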
